A study of Oryza sativa with 4 samples.

Results

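Gene expression in paleas labelled Osmads6 was compared with that in paleas labelled wild type across 20675 genes, which were those of the 55986 in the deposited table whose mean over the 4 genotypes reached 1 FPKM. FPKM, fragments per kilobase of transcript scaled to library size, relates a read count to transcript length and sequencing depth. The palea is one of the bracts that close around the rice flower, facing the lemma. Bulk RNA sequencing was run on paleas of Oryza sativa plants grown in a paddy field, and the series also holds paleas labelled Osmads32 and rep1, which are used here only to place the pair. The library labelled Osmads6 came from Nipponbare plants with an inserted Tos17 retrotransposon, in a line named for OsMADS6, a MADS-box transcription factor gene. The library labelled Osmads32 came from a T-DNA line in the AF36 background, and the library labelled rep1 from a japonica deletion line. The library labelled wild type is given as japonica with no cultivar name, so genotype and background cannot be told apart. No developmental stage, time of day or batch is given for any library. GEO lists 1 sample per genotype and the table has 2 columns for each, treated here as 2 runs of 1 sample, so n = 1 and no difference below has a replicate check. Each pair of values after a gene gives run 1 and run 2 of a library. Whole-number counts recovered from the FPKM values summed to 36215500 and 39867408 in the runs labelled Osmads6 and 53262671 and 48986393 in those labelled wild type. Such counts can differ from the true reads of a gene, so the sums give depth only roughly.

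OsMADS6 belongs to the AGL6 branch of the MADS-box family and is known for setting floral organ identity in rice, the palea included. MADS-box proteins bind DNA as dimers and larger complexes, and the classes of the floral ABCDE scheme combine to specify lodicules, stamens, carpels and ovules. In the palea and lemma, a hard hull forms from silica-rich epidermis, a layer of thick-walled fibres and green parenchyma, and its size limits that of the grain.

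The targeted gene was examined first. OsMADS6 (LOC_Os02g45770) had 124 and 129.8 FPKM in the library labelled Osmads6, against 12.5 and 14.4 FPKM in that labelled wild type. The level was therefore 9.45-fold higher in the library labelled as the mutant, which runs against the labels. The other libraries held more OsMADS6 still, with a mean of 262 FPKM under the Osmads32 label and 842 FPKM under the rep1 label. The library labelled wild type thus held the lowest level of the 4. A Tos17 insertion can leave transcript on either side of it, and the table does not show where the reads lay. An exchange of the columns labelled Osmads6 and wild type would turn every direction and swap both counts of differing genes, and whether one took place was not tested. Every direction below therefore rests on the labels, and each library is named by its label. Of the 20 measured genes nearest to OsMADS6 in locus order, 1 was 2-fold or more higher and 2 were 2-fold or more lower, with a median log2 ratio of 0.17.

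The difference between the libraries was spread over the whole transcriptome. On the scale log2((Osmads6 FPKM + 1)/(wild type FPKM + 1)), taken on the means of the runs, 1592 genes were at least 2-fold higher in the library labelled Osmads6, which is 7.7% of those measured. Another 1544 genes, 7.47%, were at least 2-fold lower, and "higher" and "lower" in all counts below mean past this threshold. The median log2 ratio of all measured genes was -0.01, and 66.5% of genes lay within 1.5-fold. A 10-fold difference was passed by 47 genes upward and 34 downward. Among the 960 genes above 100 FPKM, lower genes were more frequent, at 12.2% against 7.6% higher, while the 2452 genes under 2 FPKM held 4.81% higher and 6.04% lower. Of 378 genes just outside the 1 FPKM limit, at 0.9 to 1 FPKM, 24 were higher and 15 lower, and of 353 just inside it, at 1 to 1.1 FPKM, 29 were higher and 14 lower.

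The runs of one library differed far less than the libraries. A 2-fold difference between runs was found for 77 genes (0.372%) in the library labelled Osmads6 and for 477 genes (2.31%) in the library labelled wild type. Run values did not overlap between the libraries for 1589 of the higher and 1541 of the lower genes. These genes were chosen for a gap between run means, which largely fixes that count. The share without overlap over all measured genes was not counted. When each of the 4 run pairs had to pass 2-fold on its own, 1053 genes passed upward and 965 downward.

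**Figure D1:**
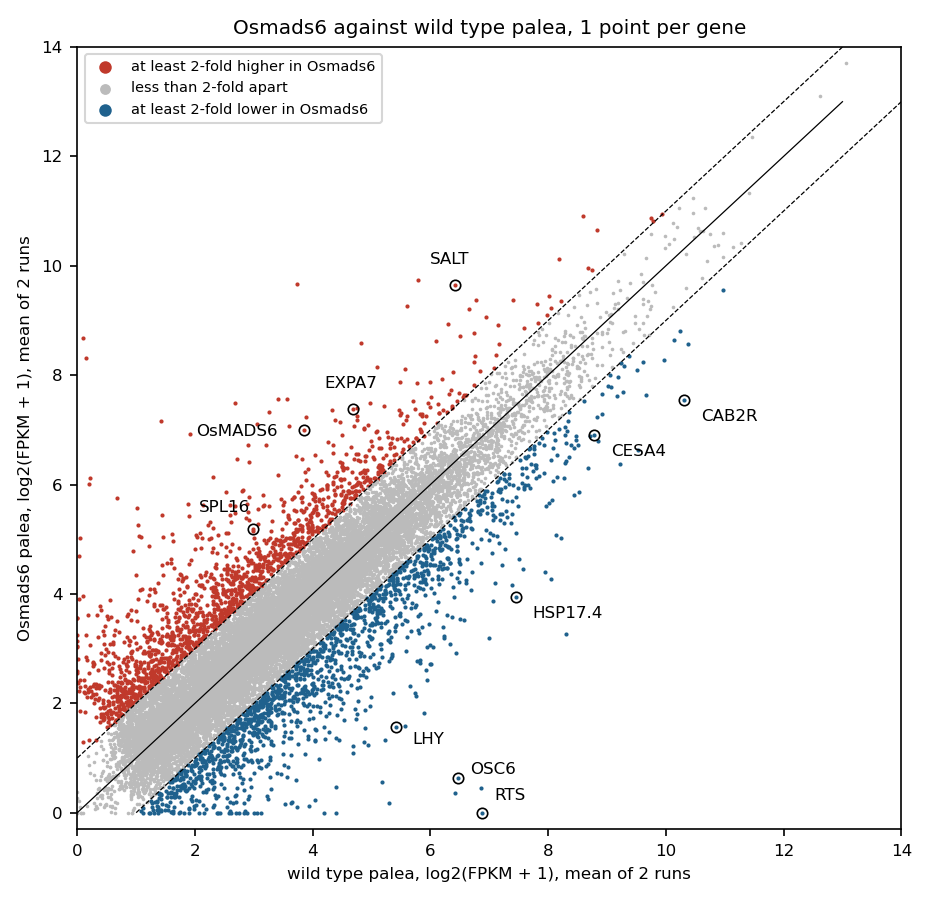
Each point is 1 of 20675 genes, with log2(FPKM + 1) in the palea library labelled wild type on the horizontal axis and in that labelled Osmads6 on the vertical axis, both means of 2 runs. The solid line marks equal levels and the dashed lines a 2-fold difference. Red points (1592) lie above the upper dashed line, blue points (1544) below the lower one, and 10 named genes are circled, among them RTS on the floor of the plot with no read in Osmads6.

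Libraries labelled Osmads32 and rep1 were used to place the pair. OsMADS32 was not reduced under the Osmads32 label, with a mean of 8.32 FPKM there and 7.19 FPKM under the wild type label, so that library too is named by its label alone. For 1237 of the higher genes (77.7%), both of these lay nearer the library labelled wild type on the log2 scale. The same held for 820 of the lower genes (53.1%). Both lay nearer the library labelled Osmads6 for 55 higher genes (3.45%) and 170 lower genes (11%). They split for the rest. The library labelled Osmads32 alone lay nearer that labelled Osmads6 for 195 higher and 356 lower genes, and the library labelled rep1 alone did for 105 higher and 198 lower genes. The library labelled Osmads6 held the highest of the 4 means for 1498 higher genes and the lowest for 1292 lower genes. That labelled wild type held the lowest for 409 higher genes and the highest for 688 lower genes. All were chosen for a gap between this pair, which favours extremes in it, and shares over all measured genes were not counted. Among genes without a name in the table, LOC_Os01g37000 had 419 and 399.7 FPKM in the library labelled Osmads6, against 0.0123 and 0.137 FPKM in that labelled wild type. LOC_Os10g05720 had 0.261 and 0.291 FPKM in the library labelled Osmads6, against 103 and 66 FPKM in that labelled wild type. Its other means were 70.04 FPKM under the Osmads32 label and 98.5 FPKM under the rep1 label.

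Gene groups were described from 51 lists with 533 symbols, of which 431 members were measured. Over all lists 50 members were higher and 99 lower. The lists lean to pathways of hull, flower and leaf. Over all measured genes both directions were nearly even, while among those averaging 5 FPKM or more 939 were higher and 1147 lower. List medians reached 2-fold upward for 3 lists and downward for 8. Upward, the AGL6-like list holds 2 measured genes, OsMADS6 among them, and the flowering time list 1, and downward the silicon transport list holds 1 and the defence list 3. The shares over all genes, 7.7% higher and 7.47% lower, are to be set beside every list count below. At these shares 1 member past the limit in a list of about 10 is near the background, and such lists are given for their members' values alone.

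**Figure D2:**
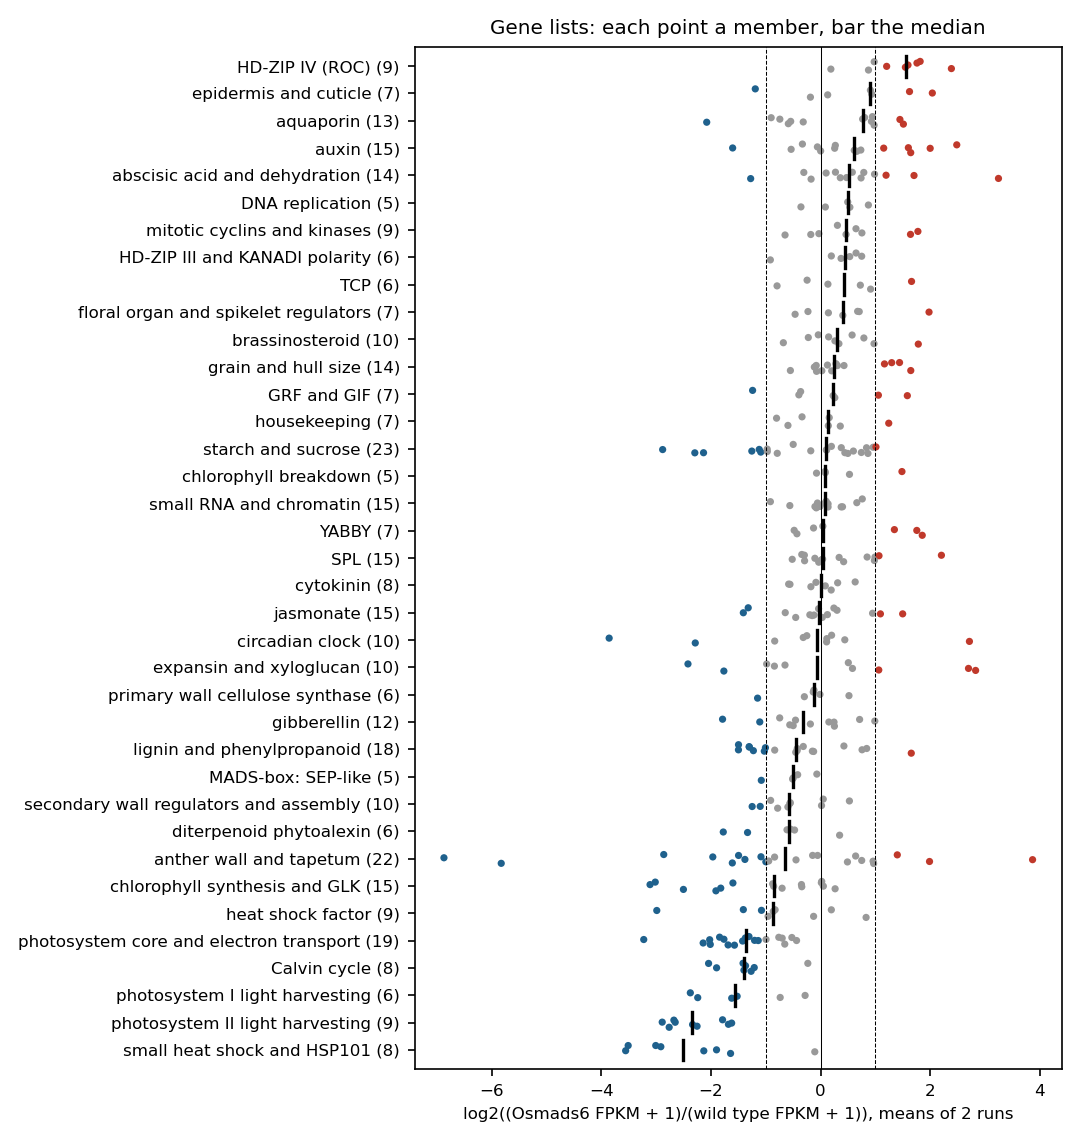
Each row is a gene list with at least 5 measured members, whose number stands in brackets. Points are members by log2((Osmads6 FPKM + 1)/(wild type FPKM + 1)), red at 1 or more, blue at -1 or less and grey between, and the black bar is the list median. HD-ZIP IV genes lie furthest to the right with a median of 1.55, and light-harvesting and small heat shock genes furthest to the left with medians of -2.34 and -2.52.

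The 25 measured MADS-box members included 1 higher, OsMADS6 itself, and 2 lower, which is near the 7.7% and 7.47% over all genes. OsMADS3 (LOC_Os01g10504), a class C gene of stamen and carpel identity, had 1.4 and 1.03 FPKM in the library labelled Osmads6, against 4.15 and 5.49 FPKM in that labelled wild type, which is 3.96-fold lower. OsMADS8 (LOC_Os09g32948), a SEPALLATA-like gene of the inner floral organs, had 12.4 and 13.5 FPKM in the library labelled Osmads6, against 31.4 and 25.6 FPKM in that labelled wild type. Its log2 ratio was -1.08, and -0.93 without wild type run 1. In bulk tissue, fewer cells of a type and less RNA per cell cannot be told apart, and markers of the inner floral organs are given with the anther genes below.

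Apart from OsMADS8, the measured SEPALLATA-like and APETALA1-like genes were within 2-fold of their level in the library labelled wild type, as was OsMADS17. OsMADS1 (LOC_Os03g11614), the SEPALLATA-like gene known for hull identity, was among the most abundant of the family with 454 and 436 FPKM in the library labelled Osmads6, against 439.96 and 830.3 FPKM in that labelled wild type, and the runs overlapped. OsMADS15 (LOC_Os07g01820), an APETALA1-like gene of palea development, had 104 and 105 FPKM in the library labelled Osmads6, against 87.6 and 57.6 FPKM in that labelled wild type. OsMADS14 (LOC_Os03g54160) and OsMADS18 (LOC_Os07g41370), of the same clade, had log2 ratios of -0.21 and 0.09. OsMADS5 (LOC_Os06g06750), OsMADS7 (LOC_Os08g41950) and OsMADS34 (LOC_Os03g54170) of the SEPALLATA clade had log2 ratios of -0.07, -0.42 and -0.50. The closest relative of OsMADS6, OsMADS17 (LOC_Os04g49150), had 116 and 123 FPKM in the library labelled Osmads6, against 93.4 and 70.1 FPKM in that labelled wild type, a 1.46-fold difference.

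Class B genes, which specify lodicules and stamens, were all below their level in the library labelled wild type but inside the 2-fold limit. OsMADS16 (LOC_Os06g49840) had 32.5 and 31 FPKM in the library labelled Osmads6, against 63.2 and 51.2 FPKM in that labelled wild type. OsMADS4 (LOC_Os05g34940) had 2.09 and 1.67 FPKM in the library labelled Osmads6, against 4.39 and 2.86 FPKM in that labelled wild type, and OsMADS2 (LOC_Os01g66030) a log2 ratio of -0.34 with overlapping runs. In each of the 3 the library labelled Osmads6 held the lowest mean of the 4 genotypes. OsMADS32 (LOC_Os01g52680), a MADS-box gene of floral organ patterning, had 14.6 and 15.3 FPKM in the library labelled Osmads6, against 6.63 and 7.75 FPKM in that labelled wild type. That is 2.08-fold by mean FPKM, and with the pseudocount its log2 ratio of 0.96 lies just inside the limit.

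Other MADS-box members were near or below 5 FPKM or level. The ovule identity gene OsMADS13 (LOC_Os12g10540) had 3 and 0 reads in the library labelled Osmads6 and 0.423 and 0.691 FPKM in the library labelled wild type, against means of 18.5 FPKM under the Osmads32 label and 10.8 FPKM under the rep1 label. OsMADS58 (LOC_Os05g11414), the second class C gene, was under 1 FPKM in both libraries of the pair, against 6.06 FPKM in the library labelled Osmads32. Among genes of the SVP and SOC1 clades, known for flowering time, OsMADS50 (LOC_Os03g03070) had 2.71 and 2.31 FPKM in the library labelled Osmads6, against 5.08 and 4.93 FPKM in that labelled wild type, and OsMADS56 (LOC_Os10g39130) a log2 ratio of -0.16. OsMADS22 (LOC_Os02g52340) and OsMADS55 (LOC_Os06g11330) had log2 ratios of -0.48 and -0.33. The ANR1-like genes OsMADS57 (LOC_Os02g49840) and OsMADS27 (LOC_Os02g36924) had log2 ratios of -0.91 and -0.22, and OsMADS26 (LOC_Os08g02070) one of 0.50. Reads of close paralogs may have been split between members of this family, which limits their values.

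YABBY genes, transcription factor genes that act in leaves and floral organs, split into a higher and a level part. Of 7 measured members 3 were higher and none lower, with a list median of 0.04. YAB5 (LOC_Os04g45330), also known as TONGARI-BOUSHI1 and required for spikelet organ formation, had 11 and 11 FPKM in the library labelled Osmads6, against 2.41 and 2.23 FPKM in that labelled wild type, which is 4.74-fold higher. YAB3 (LOC_Os10g36420) had 22.3 and 25.7 FPKM in the library labelled Osmads6, against 5.71 and 7.11 FPKM in that labelled wild type, and YAB4 (LOC_Os02g42950) had 8.02 and 8.3 FPKM in the library labelled Osmads6, against 2.3 and 2.91 FPKM in that labelled wild type. All 3 were higher in the library labelled Osmads6 than in any of the other 3 libraries. The most abundant member, YAB1 (LOC_Os07g06620), had 222 and 249 FPKM in the library labelled Osmads6, against 289.7 and 369 FPKM in that labelled wild type. YAB2 (LOC_Os03g44710) and YAB6 (LOC_Os12g42610) had log2 ratios of -0.13 and -0.43. DL (LOC_Os03g11600), the YABBY gene of carpel identity and leaf midribs, was level with overlapping runs at means of 19.6 FPKM under the Osmads6 label and 19.1 FPKM under the wild type label.

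Further regulators of spikelet organs were led by OPB (LOC_Os01g03840), OPEN BEAK, a zinc finger gene known for the shape of the lemma and palea. It had 21.1 and 22.8 FPKM in the library labelled Osmads6, against 4.08 and 5.59 FPKM in that labelled wild type, 4.54-fold higher, and its means in the other libraries were 7.21 FPKM under the Osmads32 label and 0.251 FPKM under the rep1 label. It was the 1 higher member among 7 measured spikelet regulators. TH1 (LOC_Os02g56610), which shapes the hull, and FON1 (LOC_Os06g50340), a receptor kinase that limits the floral meristem, had log2 ratios of 0.40 and 0.14 with overlapping runs. Among 6 measured TCP genes, a family that restrains or promotes growth of lateral organs, PCF5 (LOC_Os01g11550) was the 1 past the limit with 8.86 and 9.76 FPKM in the library labelled Osmads6, against 1.9 and 2.63 FPKM in that labelled wild type, 4.11-fold higher. PCF6 (LOC_Os03g57190) had 8.86 and 8.5 FPKM in the library labelled Osmads6, against 4.25 and 4.05 FPKM in that labelled wild type, and PCF2 (LOC_Os08g43160) a log2 ratio of 0.72. REP1 (LOC_Os09g24480), the TCP gene that gives rep1 its name, did not reach the 1 FPKM limit, with 0.144 and 0.197 FPKM in the library labelled Osmads6, against 0.0989 and 0.303 FPKM in that labelled wild type.

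Among genes that mark meristems and organ sides, the counts were near the shares over all genes. OSH43 (LOC_Os03g56110), a class I KNOX gene, had 9.02 and 10.2 FPKM in the library labelled Osmads6, against 22.9 and 19.2 FPKM in that labelled wild type, and was the 1 lower member of 4 measured. Its log2 ratio of -1.06 was -0.93 without wild type run 1 and -0.98 without Osmads6 run 1. None of 6 measured HD-ZIP III and KANADI genes, which set the upper and lower face of an organ, passed 2-fold. OSHB2 (LOC_Os10g33960) had 52.9 and 55.7 FPKM in the library labelled Osmads6, against 109 and 98 FPKM in that labelled wild type, and OSHB1 (LOC_Os03g01890) had 40.3 and 38.9 FPKM in the library labelled Osmads6, against 18.6 and 27.8 FPKM in that labelled wild type, so these paralogs lay on opposite sides.

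Class IV homeodomain-leucine zipper genes of the outermost cell layer had the largest share of higher members among the lists with at least 5 measured. HD-ZIP IV proteins, named ROC in rice, are known for epidermal identity and for the size and number of bulliform cells. Of 9 measured HD-ZIP IV genes, ROC1 to ROC8 and TF1, 6 were higher and none lower, and their median log2 ratio was 1.55 against -0.01 for all genes. ROC8 (LOC_Os06g10600) had 14.1 and 16.2 FPKM in the library labelled Osmads6, against 2.24 and 1.94 FPKM in that labelled wild type, 7.25-fold higher. ROC3 (LOC_Os10g42490) had 15.5 and 17.3 FPKM in the library labelled Osmads6, against 3.79 and 4.1 FPKM in that labelled wild type, and ROC2 (LOC_Os04g53540) had 31.7 and 31.6 FPKM in the library labelled Osmads6, against 8.64 and 8.7 FPKM in that labelled wild type. In ROC2 the libraries labelled Osmads32 and rep1 stood with that labelled wild type, at 9.66 FPKM under the Osmads32 label and 8.42 FPKM under the rep1 label. ROC6 (LOC_Os09g35760) was 3.04-fold higher, ROC7 (LOC_Os08g04190) 4.29-fold and ROC5 (LOC_Os02g45250) 2.37-fold. ROC1 (LOC_Os08g08820) had 19.9 and 26.1 FPKM in the library labelled Osmads6, against 9.27 and 13.1 FPKM in that labelled wild type, a log2 ratio of 0.98, and ROC4 (LOC_Os04g48070) was level at 0.19. TF1 (LOC_Os01g57890) had a log2 ratio of 0.87. The library labelled Osmads6 held the highest mean of the 4 genotypes for 8 of the 9, and the share over all measured genes was not counted. Of 7 measured members of the separate epidermis and cuticle list, 2 were higher and 1 lower, none of them with a checked pair. Its checked members, the receptor kinase gene CR4 (LOC_Os03g43670) and the calpain gene ADL1 (LOC_Os02g47970), had log2 ratios of 0.91 and 0.13.

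Among genes that act on grain and hull size, some members were higher. SPL16 (LOC_Os08g41940), which promotes cell division and grain width, had 34.4 and 36.6 FPKM in the library labelled Osmads6, against 7.21 and 6.64 FPKM in that labelled wild type, 5.13-fold higher. SPL13 (LOC_Os07g32170), which acts on grain length, had 92.8 and 113 FPKM in the library labelled Osmads6, against 54 and 43.4 FPKM in that labelled wild type, with a log2 ratio of 1.06 that was 0.92 without wild type run 2 and 0.92 without Osmads6 run 2. They were the 2 higher members of 15 measured SPL genes and none was lower, beside 7.7% and 7.47% over all genes. SPL11 (LOC_Os06g45310) had 14.7 and 12.6 FPKM in the library labelled Osmads6, against 6.12 and 6.62 FPKM in that labelled wild type, while SPL1 (LOC_Os01g18850), SPL9 (LOC_Os05g33810) and SPL12 (LOC_Os06g49010) had log2 ratios from -0.52 to -0.30. Most measured SPL genes were thus less than 2-fold apart between the libraries. Growth-regulating factors, which drive cell proliferation in young organs, included GRF4 (LOC_Os02g47280), a gene of grain size, with 6.85 and 6.07 FPKM in the library labelled Osmads6, against 1.5 and 1.49 FPKM in that labelled wild type. GRF6 (LOC_Os03g51970) had 10.3 and 10.8 FPKM in the library labelled Osmads6, against 4.5 and 4.63 FPKM in that labelled wild type, and GRF3 (LOC_Os04g51190) had 8.32 and 6.98 FPKM in the library labelled Osmads6, against 9.29 and 11 FPKM in that labelled wild type. Of 7 measured members of the family and its partners, 2 were higher and 1 lower. Of 14 measured genes in the list of grain and hull size, 4 were higher and none lower, and 1 of the 4, PGL2, had a checked pair. PGL2 (LOC_Os02g51320), a helix-loop-helix gene that lengthens grains, had 49.4 and 41.2 FPKM in the library labelled Osmads6, against 20.5 and 15.2 FPKM in that labelled wild type. GW2 (LOC_Os02g14720), D1 (LOC_Os05g26890), MPK6 (LOC_Os06g06090) and SRS3 (LOC_Os05g06280), which act in ubiquitin, G protein, kinase and kinesin pathways of grain size, had log2 ratios between -0.12 and 0.20.

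Among cell cycle genes, a pair of mitotic members was higher. CDKB2;1 (LOC_Os08g40170), a mitotic cyclin-dependent kinase gene, had 6.15 and 7.03 FPKM in the library labelled Osmads6, against 0.826 and 1.61 FPKM in that labelled wild type. CYCB1;1 (LOC_Os01g59120), a mitotic cyclin gene, had 3.53 and 4.86 FPKM in the library labelled Osmads6, against 0.522 and 0.813 FPKM in that labelled wild type. These were the 2 higher of 9 measured members, and none was lower, beside 7.7% and 7.47% over all genes. CDKB1;1 (LOC_Os01g67160) ran apart from them with 23.1 and 22.9 FPKM in the library labelled Osmads6, against 22.5 and 50.7 FPKM in that labelled wild type, and its runs overlapped. CYCB2;1 (LOC_Os04g47580) and the constitutive kinase gene CDKA;1 (LOC_Os03g02680) had log2 ratios of -0.18 and -0.03, and CDKA;2 (LOC_Os02g03060) and the inhibitor gene KRP1 (LOC_Os02g52480) had 0.31 and 0.46. The replication clamp gene PCNA (LOC_Os02g56130) had 17.2 and 21 FPKM in the library labelled Osmads6, against 11.1 and 14.7 FPKM in that labelled wild type, and none of 5 measured replication genes passed 2-fold.

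Genes of cell wall loosening differed in both directions. Expansins slip wall polymers past each other during growth, and of 10 measured expansin and xyloglucan genes 3 were higher and 2 lower. EXPA7 (LOC_Os03g60720) had 169.9 and 162 FPKM in the library labelled Osmads6, against 27.7 and 21.8 FPKM in that labelled wild type, 6.71-fold higher. EXPA5 (LOC_Os02g51040) had 26.8 and 27.8 FPKM in the library labelled Osmads6, against 4.28 and 1.69 FPKM in that labelled wild type, 9.14-fold higher. EXPA1 (LOC_Os04g15840) had 0.705 and 1.5 FPKM in the library labelled Osmads6, against 10.8 and 9.69 FPKM in that labelled wild type, 9.3-fold lower. EXPA2 (LOC_Os01g60770) was 3.51-fold lower, at means of 22.8 FPKM under the Osmads6 label and 79.8 FPKM under the wild type label. EXPA10 (LOC_Os04g49410) had a log2 ratio of 1.06, and 0.84 without wild type run 2. EXPB3 (LOC_Os10g40720), a beta-expansin gene, had 82.9 and 84.8 FPKM in the library labelled Osmads6, against 213 and 121 FPKM in that labelled wild type.

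**Figure D3:**
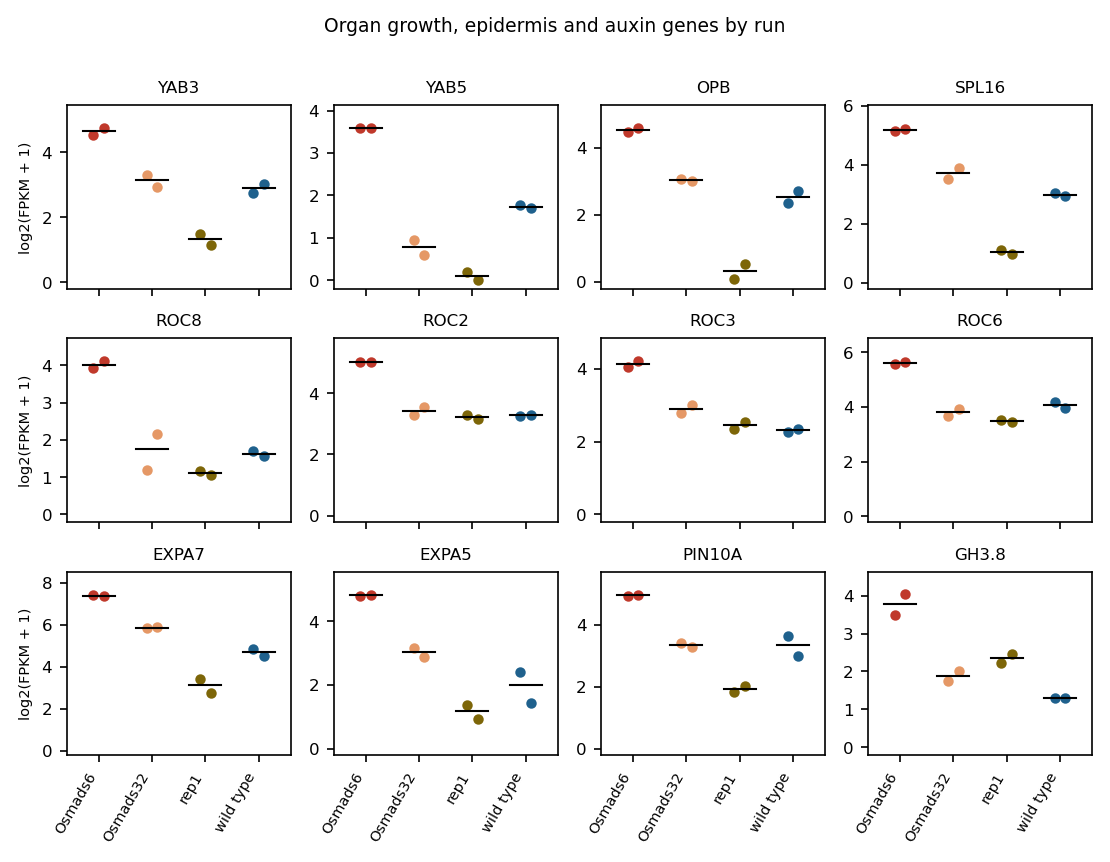
Each panel shows 1 gene, with log2(FPKM + 1) on the vertical axis and the libraries labelled Osmads6, Osmads32, rep1 and wild type from left to right. Points are the 2 runs of each library and the bar is their mean. The 12 genes were picked from the higher members of their lists, and lower members such as EXPA1, EXPA2 and IAA1 are not drawn. In all 12 panels both Osmads6 runs lie above every run of the other 3 libraries. Panels in which rep1 has the lowest mean include YAB3, YAB5, OPB, SPL16, ROC8, ROC2, ROC6, EXPA7 and EXPA5.

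Auxin genes were higher in 5 of 15 measured members and lower in 1, with a median log2 ratio of 0.61. PIN10A (LOC_Os01g45550), an auxin efflux carrier gene, had 29.4 and 30.3 FPKM in the library labelled Osmads6, against 11.4 and 6.99 FPKM in that labelled wild type, 3.25-fold higher. GH3.8 (LOC_Os07g40290) and GH3.1 (LOC_Os01g57610), whose products conjugate auxin to amino acids, were 8.73-fold and 4.66-fold higher. The auxin repressor gene IAA1 (LOC_Os01g08320) was the lower member, with 3.4 and 4.24 FPKM in the library labelled Osmads6, against 17.37 and 9.96 FPKM in that labelled wild type. TAR1 (LOC_Os01g07500), of auxin synthesis, and IAA31 (LOC_Os12g40900) had log2 ratios of 0.27 and -0.54.

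Of the brassinosteroid genes, BRD1 (LOC_Os03g40540), a late oxidase of the synthesis pathway, was the 1 past the limit among 10 measured. It had 16.86 and 15.9 FPKM in the library labelled Osmads6, against 3.62 and 4.51 FPKM in that labelled wild type, 4.04-fold higher. The receptor gene BRI1 (LOC_Os01g52050) had 42.9 and 48.2 FPKM in the library labelled Osmads6, against 23.4 and 28.5 FPKM in that labelled wild type, and BZR1 (LOC_Os07g39220), D2 (LOC_Os01g10040), D11 (LOC_Os04g39430) and GSK2 (LOC_Os05g11730) had log2 ratios from -0.68 to 0.57.

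Gibberellin genes gave 2 lower and no higher members among 12 measured, beside 7.47% lower and 7.7% higher over all genes. CPS1 (LOC_Os02g17780), the first committed enzyme of gibberellin synthesis, had 1.04 and 0.77 FPKM in the library labelled Osmads6, against 5.18 and 6.01 FPKM in that labelled wild type, 6.17-fold lower. KO2 (LOC_Os06g37364), a kaurene oxidase gene, had 5.26 and 5.49 FPKM in the library labelled Osmads6, against 10.9 and 14.6 FPKM in that labelled wild type, with a log2 ratio of -1.11 that was -0.90 without wild type run 2. The receptor gene GID1 (LOC_Os05g33730), the DELLA repressor gene SLR1 (LOC_Os03g49990) and the inactivating oxidase gene EUI1 (LOC_Os05g40384) had overlapping runs and log2 ratios of 0.24, 0.25 and 0.15. KS1 (LOC_Os04g52230), of gibberellin synthesis, and GID2 (LOC_Os02g36974), an F-box gene of its signalling, had log2 ratios of -0.19 and -0.56.

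None of 8 measured cytokinin genes was past 2-fold in either direction. LOG (LOC_Os01g40630), the activating enzyme of cytokinin in rice meristems, had 11.6 and 15.5 FPKM in the library labelled Osmads6, against 6.66 and 10.1 FPKM in that labelled wild type. The response regulator genes RR4 (LOC_Os01g72330), RR6 (LOC_Os04g57720), RR9 (LOC_Os11g04720) and RR10 (LOC_Os12g04500) had log2 ratios from -0.18 to 0.31.

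In the jasmonate pathway 2 of 15 measured members were higher and 2 lower, beside 7.7% and 7.47% over all genes. The JAZ repressor gene TIFY11B (LOC_Os03g08330) had 115 and 113 FPKM in the library labelled Osmads6, against 50.5 and 28.9 FPKM in that labelled wild type, 2.87-fold higher. TIFY11A (LOC_Os03g08310), of the same gene cluster, had a log2 ratio of 1.09, and 0.70 without wild type run 2. Another JAZ gene, TIFY10B (LOC_Os07g42370), was lower with 269.5 and 274 FPKM in the library labelled Osmads6, against 547 and 901 FPKM in that labelled wild type, as was the receptor gene COI1B (LOC_Os05g37690) with 46.3 and 44.9 FPKM in the library labelled Osmads6, against 95.2 and 136 FPKM in that labelled wild type. The synthesis gene AOS1 (LOC_Os03g55800) had 24.8 and 24.5 FPKM in the library labelled Osmads6, against 14.5 and 10.1 FPKM in that labelled wild type, a log2 ratio of 0.95, and TIFY11C (LOC_Os03g08320) one of -0.65.

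Abscisic acid and dehydration genes were higher in 3 of 14 measured members and lower in 1, with a median log2 ratio of 0.53. SALT (LOC_Os01g24710), a lectin gene that responds to salt and drought, had 803 and 808 FPKM in the library labelled Osmads6, against 95.7 and 72.7 FPKM in that labelled wild type, 9.57-fold higher, and stood at 101 FPKM under the Osmads32 label and 852 FPKM under the rep1 label. NCED3 (LOC_Os03g44380), of abscisic acid synthesis, had 10.8 and 11.1 FPKM in the library labelled Osmads6, against 3.22 and 2.13 FPKM in that labelled wild type. ABA8OX1 (LOC_Os02g47470), which degrades the hormone, had 79.1 and 81.6 FPKM in the library labelled Osmads6, against 33.5 and 35.7 FPKM in that labelled wild type. Genes for making and for degrading the hormone were therefore both higher. The transcription factor genes SNAC2 (LOC_Os01g66120), DREB2A (LOC_Os01g07120) and DREB1A (LOC_Os09g35030) had log2 ratios of -0.31, 0.10 and 0.36.

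Water channel genes had a median log2 ratio of 0.77 over 13 measured members, with 2 higher and 1 lower, beside 7.7% and 7.47% over all genes. PIP2;6 (LOC_Os04g16450), of the plasma membrane, was among the abundant members with 681 and 719 FPKM in the library labelled Osmads6, against 307 and 206 FPKM in that labelled wild type, 2.73-fold higher. PIP1;1 (LOC_Os02g44630) had 567 and 559 FPKM in the library labelled Osmads6, against 321 and 251 FPKM in that labelled wild type. PIP2;6 and PIP1;1 thus both lay above their level in the library labelled wild type. PIP2;3 (LOC_Os04g44060) had 26 and 23.1 FPKM in the library labelled Osmads6, against 11.8 and 4.11 FPKM in that labelled wild type, and its log2 ratio of 1.51 was 0.99 without wild type run 2 and 2.32 without wild type run 1. The vacuolar channel gene TIP4;1 (LOC_Os05g14240) was lower with 32 and 32.7 FPKM in the library labelled Osmads6, against 177 and 103 FPKM in that labelled wild type. PIP2;2 (LOC_Os02g41860) and TIP2;2 (LOC_Os06g22960) had log2 ratios of -0.74 and -0.59.

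Cellulose synthases of the primary wall, laid down in growing cells, were mostly level. CESA1 (LOC_Os05g08370), CESA2 (LOC_Os03g59340), CESA5 (LOC_Os03g62090), CESA6 (LOC_Os07g14850) and CESA8 (LOC_Os07g10770) had log2 ratios from -0.30 to 0.52. CESA3 (LOC_Os07g24190) was the 1 lower of 6 measured, with 123 and 123 FPKM in the library labelled Osmads6, against 244 and 304 FPKM in that labelled wild type, and with a log2 ratio of -1.15 that was -0.99 without wild type run 2. CSLF6 (LOC_Os08g06380), which makes the mixed-linkage glucan of grass walls, had 153 and 160.2 FPKM in the library labelled Osmads6, against 71.9 and 67.1 FPKM in that labelled wild type, 2.25-fold higher. It was the 1 past the limit among 3 measured cellulose synthase-like genes, and CSLD2 (LOC_Os06g02180) had a log2 ratio of 0.53.

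Secondary wall cellulose synthase genes were lower. Their products thicken the walls of fibres and vessels after growth ends. All 3 secondary wall cellulose synthase genes were lower, with a median log2 ratio of -1.88. CESA4 (LOC_Os01g54620) had 117 and 121 FPKM in the library labelled Osmads6, against 530.3 and 350.2 FPKM in that labelled wild type. CESA7 (LOC_Os10g32980) had 50.3 and 45.6 FPKM in the library labelled Osmads6, against 203 and 156 FPKM in that labelled wild type, and CESA9 (LOC_Os09g25490) had 37.6 and 38.5 FPKM in the library labelled Osmads6, against 178 and 125 FPKM in that labelled wild type. The runs did not overlap in any of them, which the gap between run means largely fixes. For each of the 3 the library labelled Osmads6 held the lowest and that labelled rep1 the highest of the 4 means. BC1 (LOC_Os03g30250), a wall assembly gene, had 10.1 and 9.58 FPKM in the library labelled Osmads6, against 22.8 and 16 FPKM in that labelled wild type, while the kinesin gene BC12 (LOC_Os09g02650) had a log2 ratio of 0.52. Of 10 measured secondary wall regulators and assembly genes 2 were lower and none higher.

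Lignin and phenylpropanoid genes were lower in 7 of 18 measured members and higher in 1, with a median log2 ratio of -0.44. COMT1 (LOC_Os08g06100), a methyltransferase of lignin units, had 391.8 and 406 FPKM in the library labelled Osmads6, against 1134 and 1125 FPKM in that labelled wild type. CAD2 (LOC_Os02g09490), which reduces lignin precursors, had 39.8 and 49.2 FPKM in the library labelled Osmads6, against 132 and 90.3 FPKM in that labelled wild type. For both, and for the gene that follows, the library labelled Osmads6 held the lowest and that labelled rep1 the highest of the 4 means. The ligase gene 4CL3 (LOC_Os02g08100) had 76.6 and 72.8 FPKM in the library labelled Osmads6, against 276 and 149.8 FPKM in that labelled wild type, with a log2 ratio of -1.5 that was -0.99 without wild type run 1. Its paralog 4CL5 (LOC_Os08g34790) ran the other way with 50.8 and 51.1 FPKM in the library labelled Osmads6, against 16.94 and 14.1 FPKM in that labelled wild type, 3.28-fold higher. CAD7 (LOC_Os04g52280) and HCT2 (LOC_Os02g39850) had log2 ratios of -0.32 and -0.13. Chalcone synthase CHS1 (LOC_Os11g32650), the entry enzyme of flavonoids, had 1.46 and 1.58 FPKM in the library labelled Osmads6, against 17.3 and 13.6 FPKM in that labelled wild type, 10.2-fold lower, and its means elsewhere were 14.6 FPKM under the Osmads32 label and 142 FPKM under the rep1 label. CHS1 was the 1 lower of 4 measured flavonoid genes. Chalcone isomerase CHI (LOC_Os03g60509) had 24.5 and 28.3 FPKM in the library labelled Osmads6, against 55.6 and 38.1 FPKM in that labelled wild type. LSI6 (LOC_Os06g12310), the 1 measured gene of 4 in the silicon transport list, had 21.9 and 22 FPKM in the library labelled Osmads6, against 49.7 and 42.1 FPKM in that labelled wild type, with a log2 ratio of -1.03 and of -0.91 without wild type run 1.

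Nuclear genes of light harvesting, photosystem cores, electron transport and the Calvin cycle made up 33 of the 99 lower list members. They were 42 of the 431 measured members. Over all measured genes 7.47% were lower, and 12.2% of those above 100 FPKM. All 9 measured light-harvesting genes of photosystem II were lower, with a median log2 ratio of -2.34. So were 4 of 6 of photosystem I (median -1.57), 13 of 19 genes of the photosystem cores and electron transport (median -1.37) and 7 of 8 Calvin cycle genes (median -1.39). No member of these 4 lists was higher. For all 42 of them the library labelled Osmads6 held the lowest mean of the 4 genotypes, and the share over all measured genes was not counted. Most of these symbol and locus pairs had no symbol in RefSeq to check against, and the core list gave a median of -0.95 over its 6 checked members. The 3 green tissue markers, CAB1R, CAB2R and RBCS2, were all lower and summed to 286 and 321 FPKM in the library labelled Osmads6, against 2372 and 1747 FPKM in that labelled wild type. Whether less green tissue or less of these transcripts per cell was present was not tested.

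CAB2R (LOC_Os01g41710), an antenna protein gene, had 172 and 199.7 FPKM in the library labelled Osmads6, against 1450.4 and 1087 FPKM in that labelled wild type, 6.83-fold lower. CAB1R (LOC_Os09g17740) had 93 and 104 FPKM in the library labelled Osmads6, against 858 and 619 FPKM in that labelled wild type, 7.48-fold lower. Rubisco activase RCA (LOC_Os11g47970) had 60.6 and 71.4 FPKM in the library labelled Osmads6, against 155 and 153 FPKM in that labelled wild type. Run 1 of the library labelled wild type was above its run 2 for 36 of the 42, and some values rested on it. PSBQ (LOC_Os07g36080), of the oxygen-evolving complex, had 50.04 and 44.4 FPKM in the library labelled Osmads6, against 191 and 57.2 FPKM in that labelled wild type, with a log2 ratio of -1.37, of -0.27 without wild type run 1 and of -1.99 without wild type run 2. PSAH (LOC_Os05g48630), of photosystem I, had a log2 ratio of -1.69, and -1.04 without wild type run 1. Ferredoxin FD1 (LOC_Os08g01380) was 2.22-fold lower, and the electron carriers PETE (LOC_Os06g01210) and PETC (LOC_Os07g37030) and the reductase LFNR1 (LOC_Os06g01850) had log2 ratios of -0.76, -0.70 and -0.44.

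Chlorophyll synthesis genes were lower in 6 of 15 measured members, and none was higher. PORA (LOC_Os04g58200), a protochlorophyllide reductase gene, had 20.4 and 21.5 FPKM in the library labelled Osmads6, against 260.1 and 118 FPKM in that labelled wild type, with a log2 ratio of -3.11 and of -2.43 without wild type run 1. CHLH (LOC_Os03g20700), a subunit of magnesium chelatase, had 12 and 12.9 FPKM in the library labelled Osmads6, against 42.7 and 56.6 FPKM in that labelled wild type, while its partner subunit CHLD (LOC_Os03g59640) had a log2 ratio of -0.35. GLK1 (LOC_Os06g24070), a transcription factor gene of chloroplast development, had 2.39 and 2.93 FPKM in the library labelled Osmads6, against 34.7 and 22.6 FPKM in that labelled wild type, 10.8-fold lower. It was also low in the library labelled Osmads32 at 1.44 FPKM, against 12.7 FPKM in that labelled rep1. Its paralog GLK2 (LOC_Os01g13740) and the chlorophyll synthase gene YGL1 (LOC_Os05g28200) had overlapping runs and log2 ratios of -0.34 and 0.02. Among breakdown genes SGR (LOC_Os09g36200), STAY-GREEN, which starts chlorophyll degradation, was higher with 6.02 and 8.81 FPKM in the library labelled Osmads6, against 1.4 and 2.62 FPKM in that labelled wild type, and NYC1 (LOC_Os01g12710) was level at 0.08.

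Clock genes differed beside the chloroplast genes. The circadian clock runs on genes that peak at set times of day and shapes the daily course of many chloroplast transcripts. LHY (LOC_Os08g06110), a gene known to peak around dawn, had 2.09 and 1.8 FPKM in the library labelled Osmads6, against 38.3 and 45.2 FPKM in that labelled wild type, 21.4-fold lower. LUX (LOC_Os01g74020), named for an evening gene of Arabidopsis, had 16.2 and 14.5 FPKM in the library labelled Osmads6, against 1.38 and 1.6 FPKM in that labelled wild type, 10.3-fold higher. PRR95 (LOC_Os09g36220) had 23.6 and 21.9 FPKM in the library labelled Osmads6, against 110.5 and 119.6 FPKM in that labelled wild type. These were the 3 genes past 2-fold among 10 measured. The library labelled Osmads32 stood with that labelled Osmads6 in LHY at 2.86 FPKM and in LUX at 25.6 FPKM, whereas that labelled rep1 stood with that labelled wild type, at 77.5 FPKM in LHY and 2.19 FPKM in LUX. GI (LOC_Os01g08700), PRR1 (LOC_Os02g40510) and ELF3-1 (LOC_Os06g05060) had log2 ratios of 0.20, 0.44 and -0.32. The time of harvest is not given, and the part of the clock genes in the chloroplast result was not tested.

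**Figure D4:**
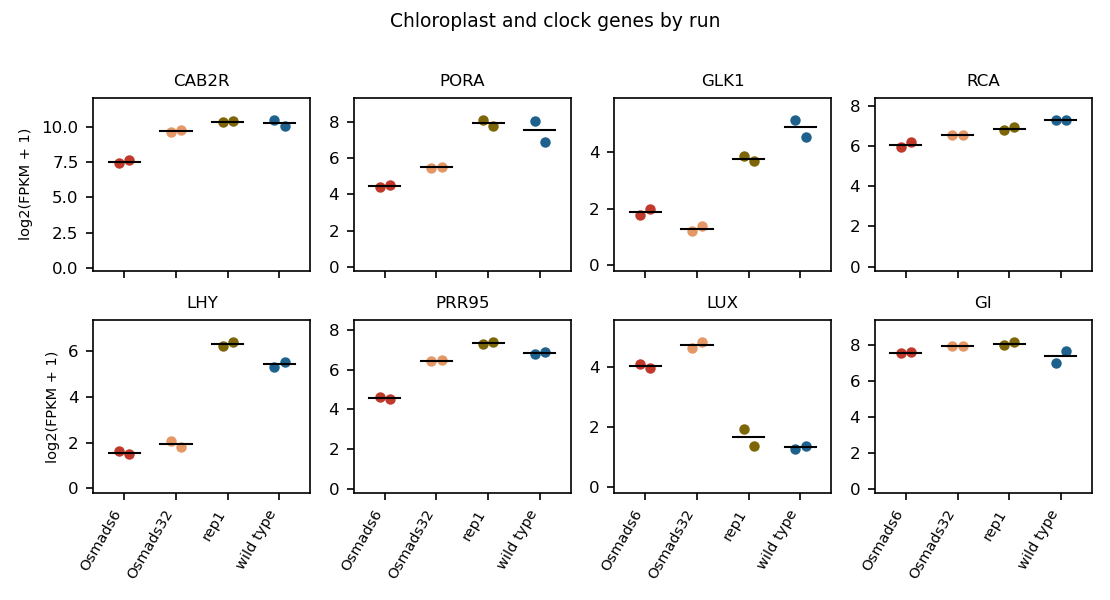
Each panel shows 1 gene, with log2(FPKM + 1) on the vertical axis and the libraries labelled Osmads6, Osmads32, rep1 and wild type from left to right. Points are the 2 runs and the bar is their mean. CAB2R, PORA, RCA and PRR95 are lowest in Osmads6, LHY is low and LUX high in both Osmads6 and Osmads32, and GI is nearly level.

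Genes of the anther wall and tapetum, the layer that feeds pollen, included the pair of list members furthest apart between the libraries. Of 22 measured members 9 were lower and 3 higher, with a median log2 ratio of -0.65, and of -0.15 over the 11 checked pairs. RTS (LOC_Os01g70440), a tapetum gene needed for male fertility, gave no read in either run labelled Osmads6, against 136 and 96.5 FPKM in the library labelled wild type, which at a floor of 3 reads per run is at least 905.5-fold lower. OSC6 (LOC_Os11g37280), a lipid transfer protein gene of pollen wall formation, had 0.831 and 0.271 FPKM in the library labelled Osmads6, against 70.1 and 104 FPKM in that labelled wild type, 158-fold lower. RAFTIN1 (LOC_Os08g38810), whose product is carried to the microspores, had 1.93 and 1.14 FPKM in the library labelled Osmads6, against 19.2 and 15.7 FPKM in that labelled wild type, 11.4-fold lower. OSC4 (LOC_Os08g43290) was 4.06-fold lower. In these 4 genes the libraries labelled Osmads32 and rep1 stood near that labelled wild type, with RTS at 91.1 FPKM under the Osmads32 label and 183 FPKM under the rep1 label, and OSC6 at 73.5 FPKM under the Osmads32 label and 79.5 FPKM under the rep1 label.

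The higher members were PKS2, MSP1 and TDR. PKS2 (LOC_Os07g22850), a polyketide synthase gene whose symbol could not be checked against RefSeq, had 13.7 and 14.2 FPKM in the library labelled Osmads6, against 0.0515 and 0 FPKM in that labelled wild type, with a log2 ratio of 3.87. It had 2 and 0 reads in the runs labelled wild type. MSP1 (LOC_Os01g68870), a receptor kinase gene that limits the number of sporocytes, had 14.8 and 15 FPKM in the library labelled Osmads6, against 2.81 and 3.23 FPKM in that labelled wild type, 4.94-fold higher. TDR (LOC_Os02g02820), a regulator of tapetum degeneration, had 4.07 and 4.92 FPKM in the library labelled Osmads6, against 1.16 and 1.01 FPKM in that labelled wild type. GAMYB (LOC_Os01g59660) and the hydroxylase gene CYP703A3 (LOC_Os08g03682) had log2 ratios of 0.64 and -0.15. The meiosis gene PAIR2 (LOC_Os09g32930) had 9.39 and 11.2 FPKM in the library labelled Osmads6, against 5.68 and 3.85 FPKM in that labelled wild type.

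A palea sample may hold parts of neighbouring organs, and marker sums were therefore set beside these results. The 8 stamen and tapetum markers, OsMADS3, OsMADS58, RTS, OSC6, RAFTIN1, UDT1, TDR and EAT1, summed to 12.9 and 14.7 FPKM in the library labelled Osmads6, against 238 and 231 FPKM in that labelled wild type, with RTS at 0 in both runs labelled Osmads6. By run they summed to 192 and 219 FPKM under the Osmads32 label and to 309 and 304 FPKM under the rep1 label. Of the 8, 4 were lower and 1, TDR, was higher, and RTS and OSC6 held most of the sums outside the Osmads6 label. The whole anther list, with MSP1, GAMYB and PKS2, summed to 350.6 FPKM in the library labelled Osmads6, against 594 FPKM in that labelled wild type. The part of stamen tissue in the lower anther, class B and class C values was not tested. The 3 class B genes, as lodicule and stamen markers, summed to 52.7 and 48.1 FPKM in the library labelled Osmads6, against 94.5 and 69.98 FPKM in that labelled wild type. The carpel and ovule markers, DL, OsMADS13 and OsMADS21, summed to 21.8 and 17.65 FPKM under the Osmads6 label, against 25 and 14.4 FPKM under the wild type label. The 4 hull markers, OsMADS1, OsMADS14, OsMADS15 and LSI6, summed to 637 and 614 FPKM in the library labelled Osmads6, against 640.2 and 992 FPKM in that labelled wild type. OsMADS1 held most of these sums, and LSI6 was the 1 lower member with none higher. The set stands for lemma and palea together, so it shows hull transcripts in both libraries but does not single out the palea. The meristem markers OSH1 and OSH15 summed to 0.232 and 0.17 FPKM under the Osmads6 label, against 0.562 and 0.505 FPKM under the wild type label.

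**Figure D5:**
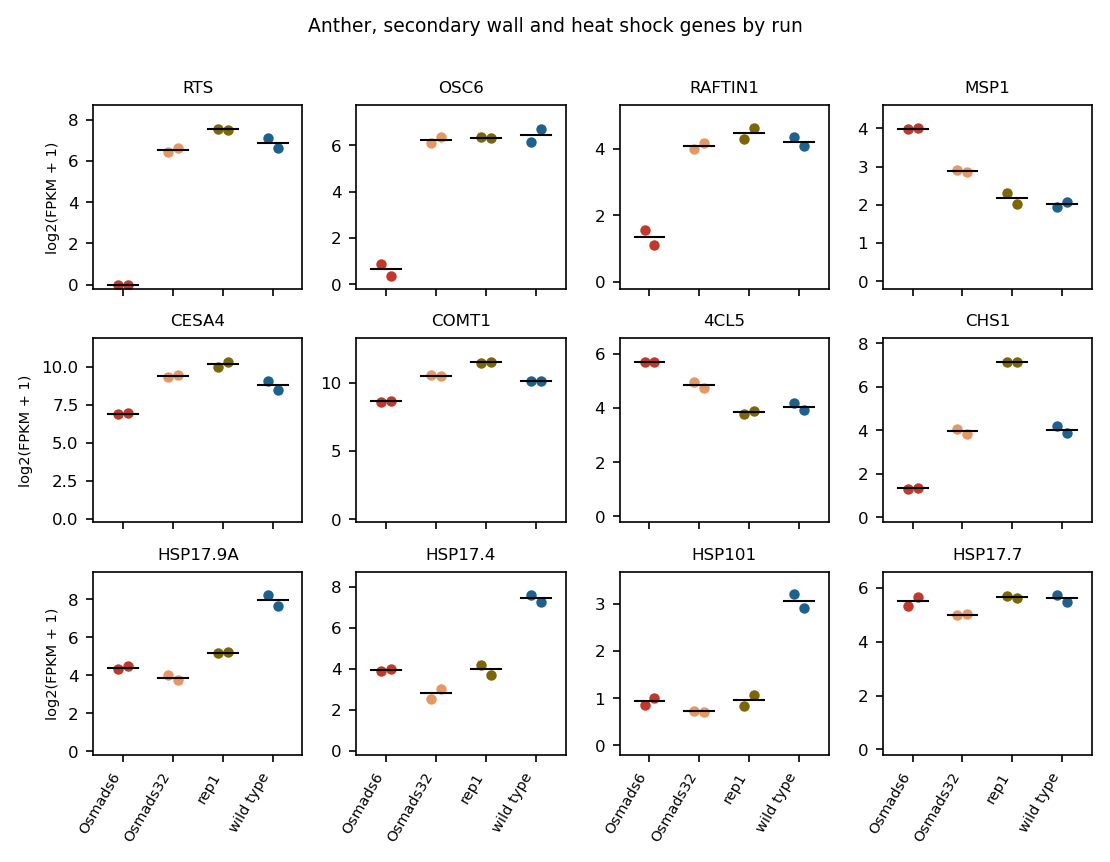
Each panel shows 1 gene, with log2(FPKM + 1) on the vertical axis and the libraries labelled Osmads6, Osmads32, rep1 and wild type from left to right. Points are the 2 runs and the bar is their mean. RTS, OSC6, RAFTIN1, CESA4, COMT1 and CHS1 are lowest in Osmads6, MSP1 and 4CL5 highest in Osmads6, and HSP17.9A, HSP17.4 and HSP101 stand high in wild type alone while HSP17.7 is nearly level.

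Heat shock genes were lower in 7 of 8 measured small heat shock and HSP101 members, with a median log2 ratio of -2.52. Their products hold unfolded proteins after heat and other stress. HSP17.4 (LOC_Os03g16020) had 13.9 and 14.8 FPKM in the library labelled Osmads6, against 194 and 154 FPKM in that labelled wild type, 12.1-fold lower. HSP17.9A (LOC_Os03g15960) had 18.6 and 21.4 FPKM in the library labelled Osmads6, against 296 and 198 FPKM in that labelled wild type, 12.3-fold lower. Neither gene had overlapping runs, which the gap between run means largely fixes. The disaggregase gene HSP101 (LOC_Os05g44340) had 0.805 and 1.01 FPKM in the library labelled Osmads6, against 8.2 and 6.54 FPKM in that labelled wild type. In these 3 genes the library labelled wild type stood apart from all the others, with HSP17.4 at 6.0 FPKM under the Osmads32 label and 14.7 FPKM under the rep1 label. HSP16.9B (LOC_Os01g04380) had 10.5 and 6.22 FPKM in the library labelled Osmads6, against 99.8 and 49.1 FPKM in that labelled wild type, and a mean of 75 FPKM in the library labelled Osmads32, so there the pattern differed. Without wild type run 1 the log2 ratios were -2.42 for HSP16.9B in place of -3.01, -1.08 for HSP16.9A (LOC_Os01g04370) in place of -1.9, and -0.74 for HSP16.9C (LOC_Os01g04360) in place of -1.64. HSP17.7 (LOC_Os03g16040) had overlapping runs at a log2 ratio of -0.11.

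Heat shock factors, the regulators of these genes, were lower in 3 of 9 members and higher in none. HSFA2A (LOC_Os03g53340) had 0.204 and 0.186 FPKM in the library labelled Osmads6, against 9.29 and 7.69 FPKM in that labelled wild type, 43.6-fold lower. HSFB2C (LOC_Os09g35790) had 2.59 and 3.11 FPKM in the library labelled Osmads6, against 10.9 and 7.6 FPKM in that labelled wild type. HSFA2D (LOC_Os03g06630) had a log2 ratio of -1.08, and -0.86 without wild type run 1. HSFA2C (LOC_Os10g28340) had 10.2 and 11.2 FPKM in the library labelled Osmads6, against 22.1 and 21.4 FPKM in that labelled wild type, and for all 4 of these factors the library labelled wild type held the highest mean of the 4 genotypes. HSFA3 (LOC_Os02g32590), HSFA2E (LOC_Os03g58160) and HSFB1 (LOC_Os09g28354) had log2 ratios of 0.83, -0.13 and 0.19.

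Sucrose and starch genes were lower in 6 of 23 measured members and higher in 1, at a median log2 ratio of 0.10, and of -0.49 over the 14 checked pairs. The lower members included genes that move and split sucrose. CIN2 (LOC_Os04g33740), the cell wall invertase of grain filling, had 3.09 and 3.53 FPKM in the library labelled Osmads6, against 35.8 and 25.8 FPKM in that labelled wild type, 9.3-fold lower. SWEET11 (LOC_Os08g42350), a sugar exporter gene, had 19.6 and 20.7 FPKM in the library labelled Osmads6, against 104 and 102 FPKM in that labelled wild type, and its means of 15.9 FPKM under the Osmads32 label and 17.6 FPKM under the rep1 label were near that of the library labelled Osmads6. SUT1 (LOC_Os03g07480), a sucrose importer gene, had 9.89 and 9.66 FPKM in the library labelled Osmads6, against 21.8 and 22.2 FPKM in that labelled wild type. Of the starch genes, SSIIB (LOC_Os02g51070) had 5.46 and 5.6 FPKM in the library labelled Osmads6, against 15.4 and 13.8 FPKM in that labelled wild type, while SSI (LOC_Os06g06560) and ISA1 (LOC_Os08g40930) had log2 ratios of 0.84 and 0.96. SUS3 (LOC_Os07g42490), a sucrose synthase gene, was the higher member with 5.13 and 6.14 FPKM in the library labelled Osmads6, against 2.53 and 2.06 FPKM in that labelled wild type. Its log2 ratio of 1.01 was 0.91 without wild type run 2, 0.90 without Osmads6 run 2 and 0.97 with median-of-ratios scaling. SUT4 (LOC_Os02g58080), a vacuolar sucrose transporter gene, had 37.3 and 33.9 FPKM in the library labelled Osmads6, against 17.74 and 20.5 FPKM in that labelled wild type.

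Of 3 measured defence genes 2 were lower. NPR1 (LOC_Os01g09800), the co-activator of salicylic acid responses, had 5.24 and 5.37 FPKM in the library labelled Osmads6, against 22 and 30.6 FPKM in that labelled wild type, 4.96-fold lower. PBZ1 (LOC_Os12g36880), a pathogenesis-related gene, had overlapping runs with means of 341 FPKM under the Osmads6 label and 276 FPKM under the wild type label. Of 6 measured genes of diterpenoid phytoalexins, the antimicrobial compounds of rice, 2 were lower. Most of the 6 lie in a single stretch of chromosome 4, so that the list itself sets the closeness of these 2. The others in that stretch were inside the limit, with log2 ratios from -0.61 to -0.48. KSL4 (LOC_Os04g10060) had 0.787 and 0.81 FPKM in the library labelled Osmads6, against 3.31 and 3.76 FPKM in that labelled wild type, and CYP99A2 (LOC_Os04g10160) had 0.292 and 0.372 FPKM in the library labelled Osmads6, against 4.49 and 2.64 FPKM in that labelled wild type. The library labelled Osmads32 was as low, at 0.83 FPKM for KSL4 and 0.589 FPKM for CYP99A2.

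None of 15 measured genes of small RNA pathways and chromatin was past 2-fold. AGO1A (LOC_Os02g45070) had 46.1 and 45.5 FPKM in the library labelled Osmads6, against 74 and 101 FPKM in that labelled wild type, and AGO1B (LOC_Os04g47870) had 80.7 and 77.5 FPKM in the library labelled Osmads6, against 44.7 and 54.7 FPKM in that labelled wild type, so these Argonaute paralogs lay on opposite sides. RDR6 (LOC_Os01g34350), DCL4 (LOC_Os04g43050), DRM2 (LOC_Os03g02010) and JMJ703 (LOC_Os05g10770) had log2 ratios from -0.56 to 0.40. Among genes often used as references, ACT1 (LOC_Os03g50885) had 629.5 and 627 FPKM in the library labelled Osmads6, against 569 and 558 FPKM in that labelled wild type, and the elongation factor gene EF1A (LOC_Os03g08010) had overlapping runs at a log2 ratio of 0.14. GAPC1 (LOC_Os04g40950) had 552 and 527 FPKM in the library labelled Osmads6, against 648 and 984 FPKM in that labelled wild type. ACT2 (LOC_Os10g36650) was the 1 of 7 past the limit, with 299.6 and 357 FPKM in the library labelled Osmads6, against 136 and 141 FPKM in that labelled wild type, 2.38-fold higher.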

How the data were processed

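Paleas of 4 rice genotypes were measured by bulk RNA sequencing, and the libraries labelled Osmads6 and wild type are compared here. Per the labels' protocols, total RNA was extracted with a column kit and messenger RNA was enriched on beads. The authors deposited 1 table of FPKM values with locus IDs, which carry the chromosome number before the letter g, and no gene names or coordinates. The submitters' processing notes name the build IRGSP 1.0. The names of aligner, counter and annotation, and any use of strand, were not given in the sources used here.

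Both columns of a genotype were averaged, and genes were kept whose average over the 4 genotypes reached 1 FPKM. The measure was log2((Osmads6 FPKM + 1)/(wild type FPKM + 1)), in which the pseudocount understates differences of low genes. A fold printed for 1 gene is the ratio of its means, with no pseudocount. No test was run and no p-value computed, since each genotype has 1 sample. The sources do not say if its columns are separate plants. Whole-number counts were recovered from the FPKM steps, within 0.02 reads, for 44686 genes (99.9% of those above 0). Each is the smallest set in proportion to a gene's values, so it can differ from the true reads by a factor. In Osmads6 run 1, CESA1 had 134802 at 308.6 FPKM and CESA5 17609 at 112.7 FPKM. The counts served for depth and for the floor of 3 reads per run behind a value of 0, which covers counting error only. The counting of differences was tested on simulated data.

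Locus IDs were given symbols known from the rice literature, and each pair was checked by chromosome and position against the RefSeq table of assembly ASM3414082v1. Of 533 pairs 360 passed, 149 symbols were absent, 19 lay on another chromosome only and 5 were out of place. Members and lists were chosen with earlier results of these data known. The genes named are the targeted genes, the checked MADS-box, YABBY and spikelet genes, and up to 3 members each way per list among checked pairs that averaged 5 FPKM or more in the pair. OsMADS32 has no matching RefSeq symbol and was kept as a gene the series targets. ROC4, ROC7, GRF4, CDKB2;1, CYCB1;1, GH3.1, CPS1, SGR, OSC4, TDR, HSP101, HSFA2A, SUT1, KSL4, CYP99A2, HD1, PKS2, SUS3 and TF1 were named after their values were seen. Some members that count in their lists are not reported here by name. Alternatives changed the pseudocount, filter, scaling, threshold and runs used. Python 3.11.15, pandas 2.3.3, numpy 2.4.6 and matplotlib 3.10.9 were used.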

Additional observations from a re-analysis of the deposited data

How the results depend on the processing

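No paired analysis was possible because there is 1 sample per genotype and the run numbers pair nothing across libraries. Of the counts, 1592 higher genes became 939 when the limit on the mean was 5 FPKM, and 1544 lower genes became 1147. Requiring 2-fold in each of the 4 run pairs gave 1053 higher and 965 lower genes, and a 4-fold threshold gave 292 higher and 271 lower. Leaving out 1 run at a time gave 1579 to 1932 higher and 1561 to 1689 lower genes, most of both without wild type run 1. A pseudocount of 0.1 FPKM gave 2168 higher and 2078 lower genes, and median-of-ratios scaling gave 1472 and 1652 while it moved the median log2 ratio of all genes to -0.05. With no filter on low values, 1769 of 41232 genes were higher and 1590 lower. The log2 ratio of OsMADS6 ran from 3.06 to 3.25 over all alternatives.

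None of the 94 other genes followed past 2-fold changed direction under any alternative. They were chosen for being past 2-fold, which largely fixes that outcome. A smaller pseudocount widens every ratio, so all 94 were bound to stay past 2-fold with that of 0.1 FPKM. With scaling 93 stayed past 2-fold, all but SUS3, while 87 did without wild type run 1 and 87 without wild type run 2. Of 11 lists with a median past 2-fold, silicon transport fell short without wild type run 1 (-0.91), and defence without Osmads6 run 1 (-0.94), without wild type run 1 (-0.83) and with checked pairs alone (-0.91). The photosystem core list fell short with checked pairs alone (-0.95). For these results the cause was not tested. With 1 sample per genotype, differences between plants cannot be told from differences between genotypes. Genes at very low FPKM rest on few reads, such as OsMADS13 with 3 and 0 in the runs labelled Osmads6.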

Other observations

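Over all measured genes, named ones such as RTS included, on-off differences were counted. In the library labelled Osmads6, 13 genes had at least 5 FPKM while the library labelled wild type had under 0.1 FPKM, and 15 genes showed the converse. A pair of loci without a symbol came close to this limit on one side, with low means of 0.104 and 0.363 FPKM. LOC_Os08g08960 had 317 and 315 FPKM in the library labelled Osmads6, against 0.038 and 0.169 FPKM in that labelled wild type, and averaged 0.381 FPKM under the Osmads32 label and 0.191 FPKM under the rep1 label. LOC_Os01g41140 had 0.18 and 0.547 FPKM in the library labelled Osmads6, against 136 and 93.3 FPKM in that labelled wild type, with means of 92.8 FPKM under the Osmads32 label and 122 FPKM under the rep1 label. For both loci the library labelled Osmads6 stood apart from the other 3. The 10 most abundant genes held 7.27% of all FPKM in the library labelled Osmads6 and 5.61% in that labelled wild type.

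Differences were spread over all chromosomes. Higher genes made up between 5.4% of measured genes on chromosome 7 and 9.11% on chromosome 1, and lower genes between 6.03% on chromosome 2 and 8.55% on chromosome 12. HD1 (LOC_Os06g16370), a regulator of flowering by day length, was the 1 flowering-time gene of 6 to pass the 1 FPKM limit. It had 4.24 and 3.25 FPKM in the library labelled Osmads6, against a mean of 0.533 FPKM in that labelled wild type, a log2 ratio of 1.63. Seed and endosperm markers summed to 39.0 and 37.3 FPKM in the library labelled Osmads6, against 22.7 and 33.6 FPKM in that labelled wild type.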
